A study of Mus musculus with 8 samples.

Results

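The comparison set bone marrow-derived macrophages of mice with the ELF1 KO label against WT macrophages, both without lipopolysaccharide (LPS). These macrophages are grown in culture from marrow progenitors. The 4 libraries compared, out of 8 in the series, were the columns KO_con 1 and 2 and WT_con 1 and 2 of the deposited gene table. The other 4 libraries, KO_M1 and WT_M1, carry the same genotype labels and an M1 label, read here as the arm given LPS for 6 h, since LPS is the one stimulus that the design names. The design gives the KO cells as coming from ELF-1 knockout mice. The kind of knockout allele, the strain, and the age and sex of the mice are not stated in the labels or design used here, nor whether libraries of 1 group come from separate animals. The p-values therefore measure the spread between these libraries, which may be technical.

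Elf1 belongs to the ETS transcription factors, which bind DNA at sites with a GGAA core. Another ETS factor, PU.1, encoded by Spi1, is a main regulator of macrophage identity and can share such sites. Unstimulated macrophages keep a low, steady signal through the type I interferon receptor, which holds interferon-stimulated genes at a basal level. Irf7 is both a product and an amplifier of that signal. Resting macrophages also clear dead cells, present peptides on MHC molecules and bind antibody through Fc receptors, and these gene groups are described below with the interferon genes.

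Values are FPKM, read counts divided by gene length and by a library size set by the authors. A gene entered the test when its FPKM was at least 1 in at least 2 of the 8 libraries, which 11887 of 54532 genes were. Changes are KO_con less WT_con on log2(FPKM + 1), a scale that understates the changes of low genes, given with their standard error. The threshold was an adjusted p of 0.05, from limma with Benjamini-Hochberg adjustment over all tested genes.

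Reads rebuilt from the table numbered 17297543 to 18058974 per library, and 10567 to 10638 genes reached an FPKM of 1. The first principal component of the 4 libraries held 53.5% of their variance and parted the genotypes, and the second, with 25.3%, parted WT_con 1 from WT_con 2. The median absolute log2 difference between replicates was 0.103 in WT_con and 0.0696 in KO_con. Macrophage markers were high in all 4 libraries, with Lyz2 (lysozyme) at 6491 to 8095 FPKM and Csf1r (the CSF1 receptor) at 656 to 753. Of 8 macrophage markers Adgre1, the surface protein F4/80, and Fcgr1 passed, both lower, with Adgre1 at 292 and 295 FPKM in WT_con and 230.5 and 235.4 in KO_con (-0.33 ± 0.04), a call that ended without KO_con 1 (adjusted p = 0.0624). The summed FPKM of 5 B cell markers was 0.205 to 0.685, and that of 6 erythroid markers 0.152 to 0.618. Sums were higher for 11 neutrophil and granulocyte precursor markers, at 2.88 and 5.28 in WT_con and 5.69 and 5.42 in KO_con. For 5 monocyte markers they were 1.47 and 2.00 in WT_con and 2.26 and 2.64 in KO_con. For 5 osteoclast markers they were 19.6 to 24.4, mostly from Ctsk. No tested member of these lists passed, and the part of such cells in the results was not tested. Stromal and endothelial markers set 1 library apart: their sum over 8 genes was 13.1 in WT_con 1, against 1.41 to 4.10 in the other 3 libraries, led by the collagen gene Col1a1 at 6.85, 2.12, 0.310 and 2.06 FPKM in WT_con 1, WT_con 2, KO_con 1 and KO_con 2. None of the 4 tested stromal markers passed. The part of stromal cells in the results was not tested, and where a call ended without WT_con 1, that is said beside it. In such bulk libraries, fewer cells of a type and less RNA per cell cannot be told apart.

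Elf1 itself was not lower in the KO-labelled libraries without LPS. It stood at 12.4 and 14.1 FPKM in WT_con and at 16.9 and 16.1 in KO_con, a change of 0.30 ± 0.07 that did not pass (adjusted p = 0.0699, limma with Benjamini-Hochberg adjustment), though it did under TPM, total-read and quantile scaling, with voom, at a minimum of 5 FPKM and without WT_con 2. With LPS it was lower in the KO-labelled libraries, at 21.9 and 22.4 FPKM in WT_M1 and 16.5 and 17.9 in KO_M1 (-0.35 ± 0.07, adjusted p = 0.0133), and the difference between the 2 changes passed (-0.64 ± 0.10, adjusted p = 0.00891). Reads summed over a gene cannot show whether an exon is missing from its transcript. Of 5 housekeeping genes Actb passed as lower and is described with the actin genes, while Hprt (0.17 ± 0.07), Tbp (0.06 ± 0.10), Gapdh (0.27 ± 0.15) and B2m (-0.31 ± 0.12) did not pass. Gapdh stood at only 1.64 and 0.912 FPKM in WT_con and 1.56 and 1.86 in KO_con. Tbp stood at 1.14 and 1.01 against 1.17 and 1.15, so both are weak references here. The 2 neighbours Wbp4 and Sugt1 were at 0.07 ± 0.08 and -0.07 ± 0.06 and did not pass. Around Elf1 on chromosome 14, none of the 9 tested genes within 1 Mb passed, and within 10 Mb 7 of 61 did, 1 higher and 6 lower (11.5%, beside 5.64% of all tested genes).

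Of 11887 tested genes, 671 passed (5.64%). In KO_con 205 were higher (1.72%) and 466 lower (3.92%). Counts for gene lists below are to be read beside these shares. Most differences were small: 411 of the 671 were under 0.5 in absolute log2 change, 25 rises reached 1 and 42 falls reached -1. The share that passed rose with level, from 2.5% of genes under 1 FPKM to 23.4% of the 252 genes at 100 FPKM or more, where 11 were higher and 48 lower. The standard error falls with level too, with a median of 0.156 in the lowest class and 0.0546 in the highest. The gene lists below were not matched for level, so their shares are also to be read beside those of the level classes. Among all tested genes the libraries of the 2 genotypes did not overlap for 6366 (53.6%), so a gap between groups alone was common.

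**Figure D1:**
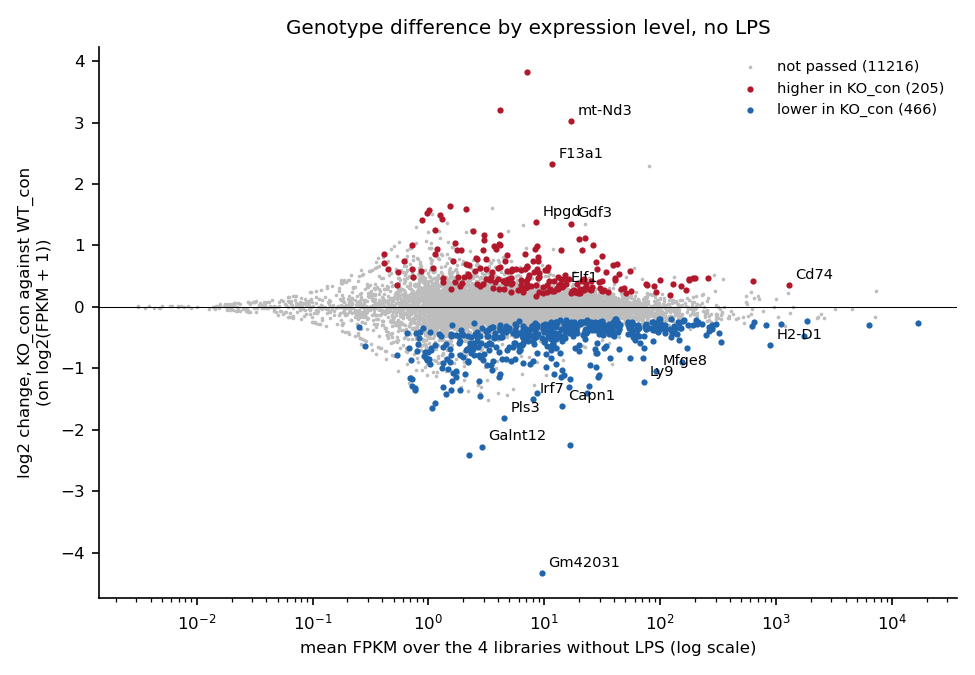
Each point is 1 tested gene, placed by its mean FPKM over the 4 libraries without LPS (log scale) and by its log2 change between KO_con and WT_con; red points passed as higher (205), blue points as lower (466) and grey points did not pass. Among genes at 100 FPKM or more the blue points (48) outnumber the red (11), while mt-Nd3 (3.03) and F13a1 (2.33) are labelled among the largest rises and Galnt12 (-2.27) and Gm42031 (-4.34) among the largest falls.

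The balance of rises and falls depended on the scaling of the libraries. As deposited, 30.6% of the passing genes were higher, but 54.8% were with TPM scaling (305 higher and 252 lower), 52.0% with scaling to total reads (433 and 399) and 42.0% after quantile normalization (349 and 481). The median change of all tested genes was -0.0024 as deposited, 0.07 under TPM scaling and 0.05 under total-read scaling. The number of calls also rested on single libraries. It was 137 without KO_con 1, 154 without KO_con 2, 217 without WT_con 1 and 521 without WT_con 2, and 108 genes, 30 higher and 78 lower, passed whichever 1 of the 8 libraries was left out. In a model of the 4 libraries without LPS alone 51 genes passed.

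Among genes with a mean of at least 5 FPKM in the higher group, groups that do not overlap and no predicted, clone or mitochondrial name, the largest rise was in F13a1, which encodes the catalytic chain of clotting factor XIII. The enzyme cross-links fibrin and is made by macrophages. It went from 3.29 and 3.13 FPKM in WT_con to 20.2 and 20.1 in KO_con, a change of 2.33 ± 0.06 (adjusted p = 3.31e-05). The largest fall by the same rule was in Galnt12, an enzyme that starts mucin-type O-glycosylation, from 6.02 and 4.84 FPKM to 0.316 and 0.333 (-2.27 ± 0.14, adjusted p = 7.13e-04). Both groups were tight against the gap between them. Next among the falls came Pls3, the actin-bundling plastin 3, at 7.48 and 7.71 FPKM in WT_con and 1.23 and 1.70 in KO_con (-1.81 ± 0.15, adjusted p = 0.00218). The calcium-dependent protease Capn1 followed, at 23.2 and 20.3 FPKM against 6.37 and 6.46 (-1.61 ± 0.08, adjusted p = 4.30e-04). Of the 8 tested genes on the list of calpains and their inhibitor Capn1 alone passed, and all 8 changes were negative. Capn11, which that list does not hold, passed too and is described with the genes nearly absent in 1 genotype.

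Among the 15 largest rises by that rule were Padi4, which turns arginine into citrulline in proteins (2.25 and 2.11 to 6.01 and 6.23 FPKM, 1.16 ± 0.08), and Acpp, an acid phosphatase (2.13 and 2.43 to 5.23 and 5.38, 0.94 ± 0.07). Lzts2, a leucine zipper protein (1.03 ± 0.10), Fkbp9, a prolyl isomerase of the endoplasmic reticulum (0.98 ± 0.09), and the matrix protein Adamtsl5 (0.99 ± 0.06) rose as well. Among the 15 falls were Cdkn1c, the cell cycle inhibitor p57, at 13.6 and 12.2 FPKM against 4.63 and 3.87 (-1.41 ± 0.10), and Ly9, a receptor of the SLAM family, at 103 and 99.9 against 43.5 and 42.4 (-1.22 ± 0.05). The tetraspanin Cd37 fell by 1.13 ± 0.07, the PBX-binding protein Pbxip1 by 1.18 ± 0.07, the unconventional myosin Myo7a by 1.13 ± 0.07, the coiled-coil protein Ccdc88b by 1.11 ± 0.05 and the ganglioside synthase B4galnt1 by 1.10 ± 0.08. Their adjusted p-values from limma ran from 3.30e-04 to 0.0031. All 15 falls passed whichever single library was left out, as did 12 of the 15 rises. Those that did not were Pf4, Egr1 and Cxcl2, described below. In the model of the 4 libraries alone 6 of the 15 rises and 11 of the 15 falls passed.

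**Figure D2:**
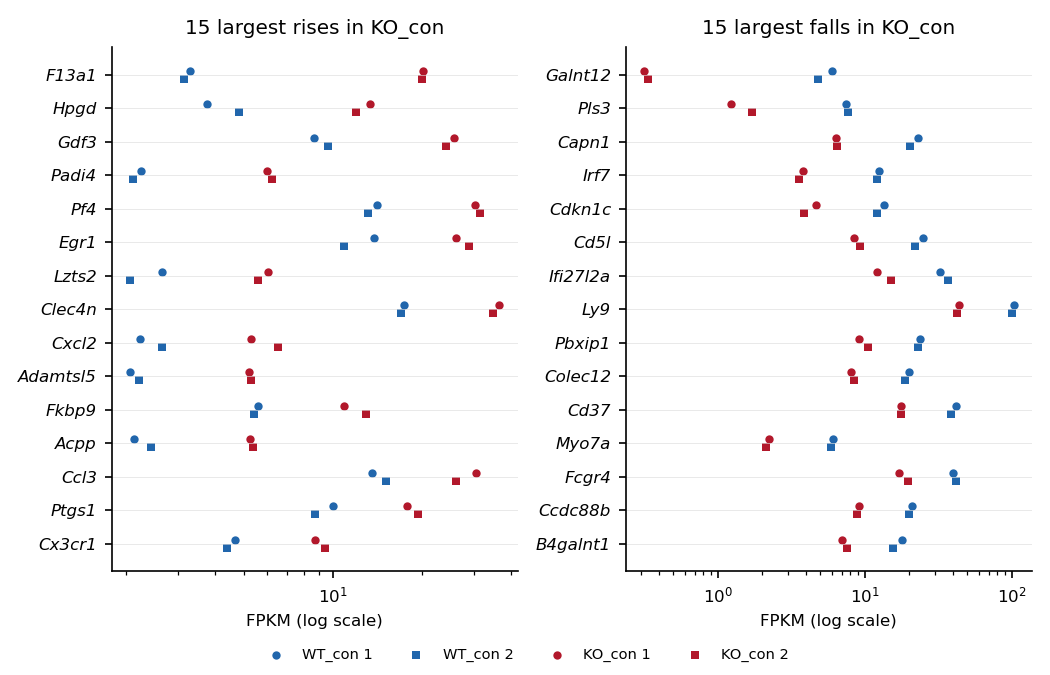
FPKM (log scale) of the 15 largest rises (left) and the 15 largest falls (right) among named genes with a mean of at least 5 FPKM in the higher group and groups that do not overlap, in each library without LPS; blue marks are WT_con, red marks KO_con, circles replicate 1 and squares replicate 2. F13a1 lies at 3.13 and 3.29 in WT_con and at 20.1 and 20.2 in KO_con, and Galnt12 at 4.84 and 6.02 and at 0.316 and 0.333.

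Irf7 and 23 of 71 tested interferon-stimulated genes passed as lower in KO_con. Irf7, the interferon regulatory factor that amplifies type I interferon genes, fell from 12.5 and 12.1 FPKM to 3.80 and 3.59 (-1.50 ± 0.05, adjusted p = 5.05e-05). Of the 71 interferon-stimulated genes 1 passed as higher and 47 did not pass. Over all tested genes 5.64% were called and 50.7% of changes were negative. Of these 71 members 33.8% were called, and 55 changes were negative. Their median change was -0.16, beside -0.0024 for all tested genes, and it stayed between -0.21 and -0.12 under the other scalings and without any single library. The count of falls was 18 to 24 under the 3 other scalings and 12 to 20 with 1 library left out, lowest without WT_con 1, and 10 of the falls passed whichever library was left out.

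The falls of interferon-stimulated genes covered several functions. Ifi27l2a, a small membrane protein strongly induced by interferon, had 32.3 and 36.8 FPKM in WT_con and 12.1 and 15.02 in KO_con (-1.29 ± 0.14, adjusted p = 0.00534). Oas3, which senses double-stranded RNA and activates RNase L, had 17.0 and 16.4 FPKM against 8.11 and 8.60 (-0.92 ± 0.06, adjusted p = 0.00114). The secreted galectin-binding glycoprotein Lgals3bp was among the most abundant members, at 207 and 194 FPKM against 104 and 110 (-0.90 ± 0.05). In all 3 the KO_con libraries lay well below the WT_con libraries. Ifi209 of the DNA-sensing PYHIN family fell by 0.86 ± 0.06, Oasl2, a relative of the Oas enzymes, by 0.85 ± 0.05, and Ly6e, a membrane protein that restricts some viruses, by 0.83 ± 0.09. These 6 genes passed whichever library was left out. Oas and PYHIN genes have close copies in tandem, and how the counting shared reads between copies is not stated in the labels, so their single values are uncertain. The 1 rise, Parp14, an ADP-ribosyltransferase, was small (7.78 and 7.86 to 9.10 and 8.93 FPKM, 0.18 ± 0.04, adjusted p = 0.045), was named after its value was seen, and ended when any 1 of the 8 libraries was left out (adjusted p = 0.0637 to 0.234).

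**Figure D3:**
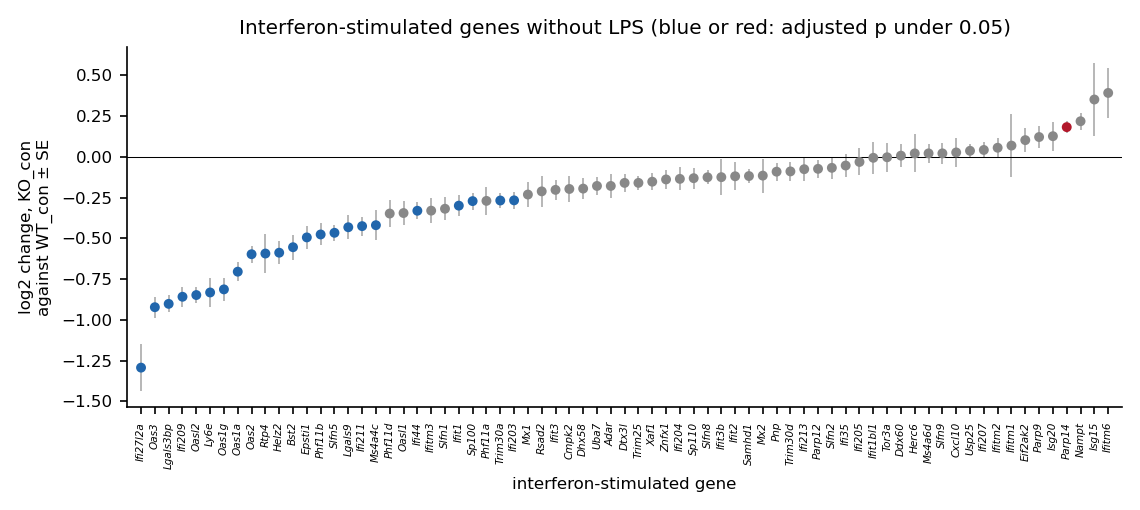
Log2 change between KO_con and WT_con, with its standard error, for each tested interferon-stimulated gene in order of change; blue points passed as lower (23), the red point as higher (Parp14) and grey points did not pass. The points run from -1.29 for Ifi27l2a upwards, and 55 of 71 lie below 0.

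The genes that sense and relay interferon passed in smaller shares than the interferon-stimulated genes. The shares were 15.4% of the regulatory factors and STATs and 15% of the receptors and sensors, beside 5.64% of all tested genes. Among 13 tested interferon regulatory factors and STATs, Irf7 and Irf5 passed, both lower, with Irf5, a relay of Toll-like receptor signals, at 71.9 and 70.8 FPKM against 55.8 and 55.4 (-0.35 ± 0.04, adjusted p = 0.00655). The list's median was -0.09, and 10 of its 13 changes were negative. Of 20 receptors and sensors 3 passed, and 15 of the 20 changes were negative. The nucleic acid sensor Zbp1 fell from 1.68 and 1.51 FPKM to 0.666 and 0.725 (-0.61 ± 0.06), the kinase Ikbke fell by 0.25 ± 0.05, and Tlr7, a receptor for single-stranded RNA, rose from 32.1 and 36.0 FPKM to 47.5 and 46.9 (0.46 ± 0.06, adjusted p = 0.0092). Of 16 guanylate-binding proteins and related GTPases, which are induced mainly by interferon gamma, Gbp9 alone passed, lower by 0.67 ± 0.08, and the list's median was -0.04. That is 6.25% called, near the 5.64% of all tested genes. The calls of Irf5, Tlr7 and Gbp9 ended without KO_con 1 or KO_con 2 (adjusted p = 0.0617 to 0.0765). The call of Ikbke ended without any 1 library other than WT_con 2 (adjusted p = 0.0791 to 0.229), and also with TPM and total-read scaling.

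The stretch upstream of the start was searched for ETS and interferon-type letters in the promoters of RefSeq (build GRCm38.p6), which matched 8193 tested genes by symbol. The window was the 250 bases before each start, on both strands. The ETS sequence CCGGAAGT stood in 2 of 150 genes that were higher (1.33%), 19 of 359 that were lower (5.29%) and 603 of all 8193 (7.36%). Its shorter core GGAAGT, which CCGGAAGT contains, stood in 28.0%, 33.4% and 28.6%. GAAANNGAA, the repeat of the interferon-stimulated response element, stood in 4.67% of the higher genes, 11.4% of the lower genes and 7.86% of all, and in 11 of the 19 interferon-stimulated genes that were lower and had a promoter (57.9%), beside 29 of all 59 tested members with one (49.2%). A match describes letters in this window and does not show binding.

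Promoters are printed below for 4 genes the results turn on, Oas3 and Irf7 of the interferon genes, Fcgr4 of the Fc receptors and F13a1, the largest rise by the rule above. They are given 5′ to 3′ on the gene's strand, with GGAAGT and GAAANNGAA in capitals, also where they lie on the opposite strand (ACTTCC in Fcgr4). The windows are chr5:120777660-120777909 (minus strand) for Oas3, chr1:171018676-171018925 (plus) for Fcgr4, chr13:37049214-37049463 (minus) for F13a1 and chr7:141266425-141266674 (minus) for Irf7.
Oas3: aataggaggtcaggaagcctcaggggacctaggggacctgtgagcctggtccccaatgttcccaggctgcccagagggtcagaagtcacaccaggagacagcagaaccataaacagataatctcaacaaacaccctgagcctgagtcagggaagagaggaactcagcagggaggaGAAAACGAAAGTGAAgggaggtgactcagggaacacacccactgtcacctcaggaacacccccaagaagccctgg
Fcgr4: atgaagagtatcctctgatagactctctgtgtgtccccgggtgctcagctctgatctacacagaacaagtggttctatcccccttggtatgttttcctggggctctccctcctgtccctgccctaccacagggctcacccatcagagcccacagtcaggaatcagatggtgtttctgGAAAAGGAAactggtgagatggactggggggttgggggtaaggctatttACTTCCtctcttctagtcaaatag
F13a1: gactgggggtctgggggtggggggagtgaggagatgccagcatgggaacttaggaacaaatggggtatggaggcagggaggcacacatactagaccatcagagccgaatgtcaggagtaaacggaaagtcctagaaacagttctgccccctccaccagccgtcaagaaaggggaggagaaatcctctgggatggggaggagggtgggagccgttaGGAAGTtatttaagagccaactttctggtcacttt
Irf7: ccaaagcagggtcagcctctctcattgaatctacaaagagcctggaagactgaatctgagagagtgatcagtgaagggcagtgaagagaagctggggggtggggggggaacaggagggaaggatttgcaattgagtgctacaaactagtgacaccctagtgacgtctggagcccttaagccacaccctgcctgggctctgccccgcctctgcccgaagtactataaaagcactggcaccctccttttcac
In Oas3 a pair of GAAANNGAA matches overlap in 1 run of capitals, Fcgr4 holds 1 match of each kind, and F13a1 holds GGAAGT. Irf7 holds none of the letters searched in this window. The table gives F13a1 another start, whose window holds neither motif.

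More MHC class I genes fell than rose, and more class II genes rose than fell. H2-D1, H2-K1, H2-T23, H2-Q6, H2-Q7, H2-Aa, H2-Eb1 and H2-DMa, described below, all lie at 30 to 40 Mb of chromosome 17. In that window 7 of 158 tested genes were higher and 20 lower (17.1%), the highest share of the 163 windows of 10 Mb counted. The part of this shared position in the result was not tested. Class I molecules carry peptides from inside the cell. Of 22 tested genes of this pathway 9 passed as lower and 1 as higher, with a median of -0.25. That is 45.5% called, beside 5.64% of all tested genes. At 20 to 100 FPKM 11.3% of tested genes were called and at 100 FPKM or more 23.4%. The list was not matched for level. With TPM scaling 5 were lower and 3 higher, and there were 4 falls without WT_con 1 or KO_con 1 and 5 without KO_con 2, while 3 of the falls passed whichever library was left out. H2-D1, a classical heavy chain, had 1107 and 1059 FPKM in WT_con and 692 and 712 in KO_con (-0.62 ± 0.05, adjusted p = 0.00169). H2-K1, the other classical heavy chain, had 408 and 396 FPKM against 262 and 281 (-0.56 ± 0.06, adjusted p = 0.00375). H2-T23, the non-classical heavy chain Qa-1, had 54.9 and 54.6 against 32.9 and 34.1 (-0.69 ± 0.04, adjusted p = 6.05e-04). For each of the 3 the libraries of a group were close and the groups far apart, and the calls passed whichever library was left out. B2m, their light chain, did not pass at -0.31 ± 0.12, with WT_con 2 the highest library. H2-Q6 and H2-Q7, near-identical neighbours whose separate values are uncertain, were lower by 0.71 ± 0.12 and 0.42 ± 0.06. Psme2, a subunit of the proteasome activator PA28, rose from 5.35 and 6.93 to 11.5 and 11.6 FPKM (0.82 ± 0.14, adjusted p = 0.0231).

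Class II molecules carry peptides taken up from outside. Of 11 tested genes 5 passed as higher and 1 as lower, with a median of 0.30. That is 54.5% called, beside 5.64% of all tested genes and 23.4% of those at 100 FPKM or more. The list was not matched for level. H2-Ab1, a class II beta chain, went from 161 and 172 FPKM to 218 and 244 (0.47 ± 0.07, adjusted p = 0.0165). The alpha chain H2-Aa went from 146 and 151 to 197 and 210 (0.45 ± 0.06), the beta chain H2-Eb1 from 153 and 170 to 212 and 237 (0.47 ± 0.09), and the peptide exchanger H2-DMa from 12.5 and 12.6 to 17.6 and 17.6 (0.46 ± 0.05). Cd74, the invariant chain, was the most abundant at 1115 and 1135 against 1382 and 1508 FPKM (0.36 ± 0.06). Dendritic cells also express class II, and the summed FPKM of 7 dendritic cell markers was 0.478 and 0.557 in WT_con and 0.937 and 1.10 in KO_con, with no marker above 0.408 and Cd209a at 0 in both WT_con libraries. Their part in the result was not tested. The member that fell was Ctss, the protease cathepsin S that cuts the invariant chain (1912 and 2110 to 1436 and 1470 FPKM, -0.47 ± 0.06, adjusted p = 0.0119). None of the 6 class II calls passed without every library. H2-DMa and Ctss ended without KO_con 1 or KO_con 2, H2-Ab1 without WT_con 1 or KO_con 2, H2-Aa without WT_con 1 or either KO_con library, and Cd74 and H2-Eb1 without any 1 con library, H2-Eb1 also without either WT_M1 library (adjusted p = 0.0502 to 0.197). In class I, Psme2 ended without WT_con 1 or either KO_con library, H2-Q7 without either WT_con library or KO_con 1, and H2-Q6 without either WT_con or WT_M1 library or KO_M1 2 (adjusted p = 0.0501 to 0.14). Ctss also did not pass under quantile normalization, nor H2-Q6 under TPM scaling.

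Among secreted signals, more chemokines rose than fell. Of 21 tested chemokines 5 passed as higher and 2 as lower, with a median of 0.06. That is 33.3% called, beside 5.64% of all tested genes. Ccl3, which draws monocytes, stood at 13.6 and 15.1 FPKM in WT_con and 30.4 and 26.1 in KO_con (0.93 ± 0.08, adjusted p = 0.00218). Cxcl2, which draws neutrophils, went from 2.23 and 2.65 to 5.29 and 6.55 (1.01 ± 0.15, adjusted p = 0.0139). Pf4, platelet factor 4, went from 14.2 and 13.1 to 30.3 and 31.4 (1.12 ± 0.14, adjusted p = 0.00805). Pf4 also marks megakaryocytes, and the other 6 markers on that list stood at 0 to 2.13 FPKM. Of these the platelet chemokine Ppbp had 0.295 and 1.49 FPKM in WT_con and 2.13 and 2.07 in KO_con, the integrin chain Itga2b 0.426 and 0.287 against 0.762 and 0.584, and the platelet receptor Gp1ba 0.839 and 0.964 against 1.26 and 1.14. Gp9 stood at 0.104 to 0.157 and Gp6 at 0 to 0.0228. Pf4 was the 1 of 3 tested members to pass, all 3 changes were positive, and the part of megakaryocytes in the result was not tested. Ccl6 rose by 0.59 ± 0.07 and Ccl4 by 0.51 ± 0.10, while Ccl5, which draws T cells and monocytes, fell by 0.43 ± 0.05 and Cxcl14, named after its value was seen, fell by 0.39 ± 0.07.

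Of 19 cytokines and TNF family members 4 passed. Gdf3, a ligand of the TGF-beta superfamily, showed the largest rise, from 8.66 and 9.62 FPKM to 25.7 and 24.2 (1.36 ± 0.09, adjusted p = 0.00107). Tnf rose from 3.95 and 3.93 to 5.40 and 6.05 (0.44 ± 0.06, adjusted p = 0.0078), and the inflammatory cytokine Il1b fell from 8.42 and 8.51 to 5.68 and 5.46 (-0.53 ± 0.06, adjusted p = 0.00619). Inflammatory cytokines thus moved in both directions. Spp1, osteopontin, fell by 0.42 ± 0.06 from a high level, 365 and 376 FPKM against 288 and 264. Of 15 coagulation and fibrinolysis genes, F13a1 and coagulation factor F10 (0.48 ± 0.07) were higher and the protein C receptor Procr was lower (-0.47 ± 0.10, adjusted p = 0.04998). Among the secreted factors, F13a1, Gdf3, Ccl3 and Tnf passed whichever library was left out. The calls of Ccl6 and Ccl5 ended without KO_con 1 or KO_con 2, those of Pf4, Cxcl2, Cxcl14 and F10 also without WT_con 1, that of Il1b without KO_con 2 and that of Spp1 without any 1 con library. Ccl4 ended without any 1 library other than KO_con 2 and Procr without any other than WT_con 2 (adjusted p = 0.0504 to 0.245 over these genes). Procr did not pass under TPM or total-read scaling, nor Cxcl14 under TPM scaling.

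Fc receptors, which bind the constant part of antibodies, passed in both directions. Fcgr4, an activating receptor for IgG2, fell from 39.9 and 41.9 FPKM to 17.1 and 19.7 (-1.12 ± 0.08, adjusted p = 0.0015). The high-affinity activating receptor Fcgr1 fell from 48.5 and 50.6 to 36.2 and 38.3 (-0.40 ± 0.05, adjusted p = 0.00779). Fcgr2b, the inhibitory receptor, rose from 30.2 and 29.2 to 48.6 and 48.3 (0.69 ± 0.04, adjusted p = 7.13e-04). Thus, among the members that passed, both falls were in activating receptors and the inhibitory one rose. Of 8 tested members 3 were higher, 2 were lower and 3 did not pass (62.5% called, beside 5.64% of all tested genes). Their changes were 4 positive and 4 negative, with a median of -0.05. The other rises were in Fcrls, a relative of the Fc receptors (0.71 ± 0.07), and Fcgrt, which recycles IgG inside the cell (0.44 ± 0.05). Of these calls, that of Fcgr1 ended without KO_con 1 and that of Fcgrt without either KO_con library (adjusted p = 0.0548 to 0.0738).

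Other surface receptors moved singly. Cx3cr1, the fractalkine receptor, went from 4.68 and 4.40 FPKM to 8.72 and 9.44 (0.86 ± 0.09, adjusted p = 0.00427). Clec4n, the lectin dectin-2 that binds fungal mannans, went from 17.5 and 17.0 to 36.6 and 34.9 (1.01 ± 0.10, adjusted p = 0.00331). Of 11 tested C-type lectins, Clec4n and Clec10a were higher and Clec7a, dectin-1, was lower (-0.30 ± 0.06), with a median of 0.18. Of 20 inhibitory and paired receptors 3 were higher, Cd33 (0.53 ± 0.06), Lilrb4a (0.37 ± 0.05) and Lilr4b (0.34 ± 0.04), and 2 lower, the sialic acid receptor Siglec1 (-0.47 ± 0.09) and the lipid receptor Trem2 (-0.19 ± 0.04), with a median of -0.09. Lilrb4a and Lilr4b are close copies and their separate values are uncertain. Cd33 ended without KO_con 1, Lilr4b without either KO_con library, Lilrb4a also without WT_con 1, Siglec1 without WT_con 1 or any KO_con or WT_M1 library, Clec7a without any library other than WT_con 1 and Trem2 without any 1 library (adjusted p = 0.0557 to 0.226). Trem2 and Clec7a did not pass under TPM, total-read or quantile scaling, nor Siglec1 under TPM scaling.

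Receptors and bridging proteins that clear dead cells and modified lipoproteins included large falls. Cd5l, a secreted scavenger protein of tissue macrophages, had 25.0 and 22.1 FPKM in WT_con and 8.52 and 9.30 in KO_con (-1.31 ± 0.08, adjusted p = 7.13e-04). Mfge8, which bridges dying cells to integrins, had 121 and 129 against 60.4 and 59.1 (-1.05 ± 0.05, adjusted p = 3.76e-04). Colec12, a scavenger receptor with a collagen-like stalk, had 20.1 and 18.8 against 8.13 and 8.40 (-1.14 ± 0.09, adjusted p = 0.00169). These 3 passed whichever library was left out. The endocytic receptor Lrp1 also fell by 0.46 ± 0.09, while Stab1, stabilin 1, rose by 0.48 ± 0.07 and Msr1, scavenger receptor A, by 0.22 ± 0.04, which makes 4 falls and 2 rises among 19 tested genes with a median of -0.03.

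Markers of alternative activation, the state that IL-4 induces, divided as well. Of 13 tested members 5 were higher and 2 lower, with a median of 0.30. The median was 0.55 with TPM scaling, 0.09 without KO_con 1 and 0.52 without WT_con 1, and 2 were higher without either KO_con library and 3 without WT_con 2. Mrc1, the mannose receptor, rose from 22.2 and 19.8 FPKM to 36.2 and 34.3 (0.72 ± 0.07, adjusted p = 0.00276). Mgl2, a galactose-binding lectin, rose from 0.479 and 0.615 to 3.15 and 4.24 (1.59 ± 0.14, adjusted p = 0.00234). The lectin Clec10a (0.59 ± 0.09), the haemoglobin receptor Cd163 (0.74 ± 0.11) and Stab1 were also higher, Clec10a and Cd163 from under 1 FPKM in WT_con. The falls were in Tgm2, transglutaminase 2, from 223 and 199 FPKM to 128 and 135 (-0.67 ± 0.06, adjusted p = 0.00338), and in the folate receptor Folr2, from 2.01 and 2.14 to 0.380 and 0.726 (-0.99 ± 0.17). The calls of Mrc1, Mgl2 and Tgm2 passed whichever library was left out. Stab1 ended without either KO_con library, and Folr2, Cd163 and Clec10a without any 1 con library. Msr1 ended without WT_con 1 or any KO_con or WT_M1 library, and Lrp1 without any library other than WT_con 2 (adjusted p = 0.0501 to 0.198 over these genes). Lrp1 did not pass under TPM or quantile scaling.

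Of 39 tested genes of actin and its regulators, which shape the cell edge and drive phagocytosis, 14 passed, all lower, and 25 did not pass. Of the 39 changes 36 were negative, beside 50.7% over all tested genes, and the median was -0.16. The share called was 35.9%, beside 5.64% of all tested genes. High genes as a class also leaned lower. Over all tested genes the median change was -0.054 at 20 to 100 FPKM and -0.099 at 100 FPKM or more, where 8.75% and 19.0% passed as lower. The actin list was not matched for level. Rac2, the small GTPase of leukocytes that also feeds the NADPH oxidase, had 43.9 and 39.5 FPKM in WT_con and 27.3 and 25.3 in KO_con (-0.64 ± 0.07, adjusted p = 0.00492). The actin-binding protein Lsp1 had 35.6 and 33.5 against 23.4 and 21.6 (-0.60 ± 0.09), and the heavy chain of non-muscle myosin, Myh9, 117 and 103 against 81.2 and 83.7 (-0.41 ± 0.06). Zyx, Evl and Vasp, which act at focal adhesions and filament tips, fell by 0.43 ± 0.09, 0.38 ± 0.05 and 0.36 ± 0.06. Actb, the main actin gene of these cells, fell from 1238 and 1183 to 966 and 1020 (-0.29 ± 0.06, adjusted p = 0.046).

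The actin list depended on scaling and on single libraries. Its median was -0.08 with TPM scaling and -0.10 with total-read scaling and after quantile normalization, and its count of falls was 5 with TPM scaling, 10 with total-read scaling and 9 after quantile normalization, and 1 to 14 with 1 library left out, 1 without either KO_con library, 3 without WT_con 1 and 7 without either WT_M1 library. Rac2 alone passed whichever library was left out. Evl and Myh9 ended without either KO_con library and Lsp1 also without WT_con 1. Vasp ended without WT_con 1 or any KO_con or WT_M1 library, Zyx without any library other than WT_con 2, and Actb without any 1 con or WT_M1 library (adjusted p = 0.0511 to 0.249). Actb did not pass under the 3 other scalings, Zyx under TPM or total-read scaling, nor Myh9 and Vasp under TPM scaling. WT_con 1, the library with the highest stromal markers, was also the highest of the 4 libraries for Rac2, Lsp1, Myh9, Zyx and Actb, and the part of those markers was not tested. Among 22 integrins and adhesion genes 6 were lower and 1 higher, led by the integrin chain Itga9, from 4.48 and 4.58 FPKM to 2.14 and 1.64 (-0.94 ± 0.10, adjusted p = 0.00429), which alone passed whichever library was left out. The integrin list had 1 fall with TPM scaling, 3 with total-read scaling, 1 without WT_con 1 or either KO_con library and 2 without either WT_M1 library, and its median moved from -0.10 to -0.02 with TPM scaling.

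**Figure D4:**
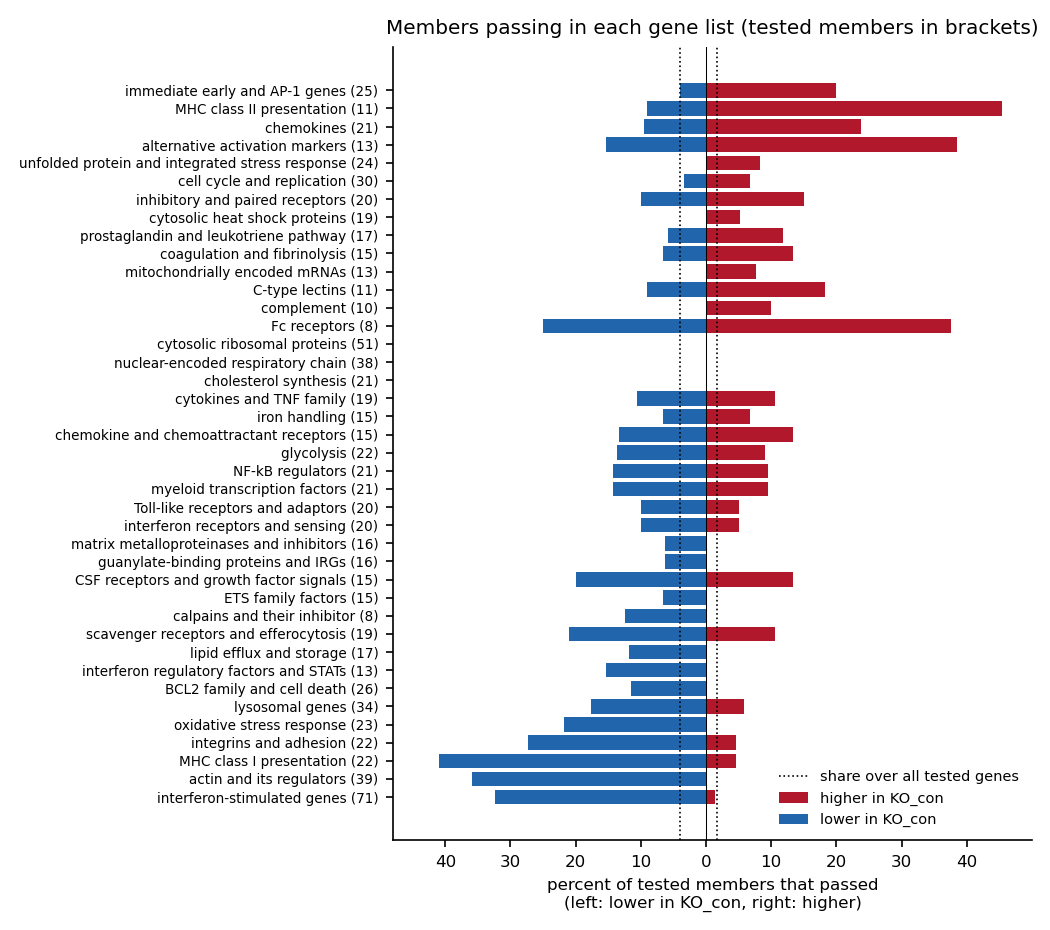
Percent of the tested members of each gene list that passed as lower (blue, to the left) or higher (red, to the right) in KO_con, with the number of tested members in brackets; lists of cell type markers and lists with under 8 tested members are not drawn, and the dotted lines mark the shares over all tested genes (3.92% lower, 1.72% higher). Interferon-stimulated genes (23 of 71 lower), actin and its regulators (14 of 39 lower) and MHC class I (9 of 22 lower) extend to the left, and MHC class II (5 of 11 higher) to the right. The lists were not matched for level.

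Prostaglandins are lipid signals made from arachidonic acid, and genes at both ends of the pathway were higher. Ptgs1, the constitutive cyclooxygenase, went from 9.99 and 8.71 FPKM to 17.8 and 19.4 (0.92 ± 0.09, adjusted p = 0.00369). Hpgd, which inactivates prostaglandins, went from 3.77 and 4.81 to 13.4 and 12.03 (1.38 ± 0.11, adjusted p = 0.00176). Abcc4, a transporter that can export them, fell from 4.20 and 4.24 to 2.30 and 2.63 (-0.59 ± 0.07, adjusted p = 0.00517). These 3 of 17 tested genes passed (17.6%, beside 5.64% of all tested genes), each also without any single library. The list's median was 0.06.

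In energy and lipid metabolism 5 of 22 glycolysis genes (22.7%) and 2 of 17 genes of lipid efflux and storage (11.8%) passed, beside 5.64% of all tested genes. That share rises with level, to 11.3% at 20 to 100 FPKM and 23.4% at 100 FPKM or more. The lists were not matched for level. Of the glycolysis genes 2 were higher, the hexose transporter Slc2a6 (6.65 and 6.51 to 10.3 and 10.9 FPKM, 0.61 ± 0.05, adjusted p = 0.00176) and the phosphofructokinase Pfkm (0.43 ± 0.07). The other phosphofructokinase Pfkp (-0.38 ± 0.06), lactate dehydrogenase Ldha (-0.36 ± 0.05) and the hexokinase Hk3 (-0.31 ± 0.05) were lower. Nr1h3, the oxysterol receptor LXR alpha, fell from 11.3 and 11.6 to 7.65 and 7.80 (-0.51 ± 0.05, adjusted p = 0.00427), and its target Abcg1, a cholesterol exporter, fell by 0.42 ± 0.08. Slc2a6 and Nr1h3 passed whichever library was left out. Pfkp, Ldha and Hk3 ended without WT_con 1 or either KO_con library, Abcg1 also without either WT_M1 library, and Pfkm without any 1 con library (adjusted p = 0.0542 to 0.173). Hk3 did not pass under TPM or quantile scaling, nor Abcg1 under TPM scaling. None of 21 cholesterol synthesis genes, 51 cytosolic ribosomal protein genes or 38 nuclear-encoded respiratory chain genes passed in limma, with medians of 0.12, -0.11 and 0.02.

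Of 15 tested genes of the ETS family of transcription factors, Spi1 alone passed, from 108 and 106 FPKM to 93.2 and 93.3 (-0.19 ± 0.04, adjusted p = 0.0298), and the list's median was -0.03. That is 6.67% called, near the 5.64% of all tested genes. Of 21 myeloid factors 2 passed as higher and 3 as lower. Klf2, which restrains inflammatory genes, rose from 7.01 and 5.75 to 11.6 and 11.0 (0.74 ± 0.11, adjusted p = 0.0131), and Klf6 rose by 0.29 ± 0.05. Pparg, a nuclear receptor of lipid handling, fell by 0.47 ± 0.09, Cebpb by 0.33 ± 0.06, and Nr1h3 as given above. Egr1, an immediate early gene, showed the largest change among regulators other than Irf7, from 13.8 and 10.9 FPKM to 26.1 and 28.8 (1.10 ± 0.13, adjusted p = 0.00621). Egr1 ended without KO_con 2, Klf2 without either KO_con library, Pparg without any 1 con library, and Klf6, Cebpb and Spi1 without any 1 con or WT_M1 library (adjusted p = 0.0509 to 0.215). Spi1 did not pass under the 3 other scalings, nor did Cebpb under TPM or quantile scaling or Pparg under TPM scaling.

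Growth signals and the cell cycle gave a few more. Pdgfa, a growth factor for mesenchymal cells, rose from 8.12 and 7.49 FPKM to 12.2 and 12.3 (0.59 ± 0.06, adjusted p = 0.004), and Igf1 rose by 0.53 ± 0.08. The GM-CSF receptor chain Csf2ra fell from 186 and 161 to 119 and 118 (-0.54 ± 0.07, adjusted p = 0.00805), and the IL-3 receptor chain Il3ra and Tgfb1 fell by 0.45 ± 0.05 and 0.36 ± 0.07. Of 30 cell cycle genes 2 passed as higher and 1 as lower, and 27 did not pass. That is 10% called, beside 5.64% of all tested genes, and the list's median was 0.10. Mki67, a marker of cycling cells, rose from 2.25 and 2.26 to 3.94 and 4.05 (0.62 ± 0.06, adjusted p = 0.00276). The tubulin-binding Stmn1 rose by 0.46 ± 0.08 and the inhibitor Cdkn1a, p21, fell by 0.40 ± 0.06. Pdgfa and Mki67 passed whichever library was left out. Csf2ra, Il3ra and Cdkn1a ended without either KO_con library, Igf1 and Stmn1 also without WT_con 1, and Tgfb1 without any library other than WT_con 2 (adjusted p = 0.0602 to 0.202). Tgfb1 did not pass under TPM or quantile scaling, nor Cdkn1a under TPM scaling.

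A few genes were nearly absent in the libraries of 1 genotype. By a rule set after the values were seen, a ratio of at least 8 in CPM, reads scaled to the library total, and at least 50 reads over a group, 9 passing genes qualified, 7 lower and 2 higher in KO_con. The lincRNA gene Gm42031 (chromosome 8, 85125872 to 85132289) had 804 and 778 reads in WT_con and 0 in both KO_con libraries, at least 257-fold lower when 3 reads per library are allowed for the zeros. With LPS it had 248 and 208 reads in WT_M1 and again 0 in both KO_M1 libraries. The peptide transporter Slc15a2 had 221 and 276 reads against 0 and 0, at least 80.7-fold lower, and the sorting nexin Snx7 had 284 and 302 against 7 and 14, a ratio of 27.2. In the other direction, Bmpr1a, a receptor for bone morphogenetic proteins, had 28 and 34 reads in WT_con and 381 and 415 in KO_con, a ratio of 13.2, and 22 and 16 against 306 and 324 with LPS.

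The other lower genes by that rule were the pseudogene Gm15925 (180 and 186 reads against 0 and 2), the calpain Capn11 (91 and 79 against 0 and 0, at least 27.6-fold), the zinc finger gene Zfp995 (91 and 102 against 6 and 2) and Galnt12 (302 and 241 against 16 and 17). The other higher one was mt-Nd3, a subunit of complex I. Mitochondrial genes have near copies in nuclear DNA, and how the counting treated reads that match both is not given in the sources used here. Of the 9, 8 also passed in the same direction with LPS, in libraries that the rule did not use, and Capn11 did not. The call of Capn11 without LPS ended without WT_con 1 or KO_con 1 (adjusted p = 0.0502 to 0.0507). Immunoglobulin constant genes, also named after their values were seen, were higher in KO_con while B cell markers were near 0. Ighm had 51 and 71 reads in WT_con and 207 and 178 in KO_con (1.18 ± 0.13, adjusted p = 0.00542), and Igkc had 0 and 0 reads against 19 and 29 (1.59 ± 0.24, adjusted p = 0.016). Ighm ended without KO_con 1 and Igkc without any 1 con library (adjusted p = 0.0546 to 0.112).

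The genes passing without LPS were followed in the libraries with LPS, which are separate libraries with the same labels. There, 1286 tested genes were higher in KO_M1 than in WT_M1 (10.8%) and 2152 lower (18.1%). Of the 466 genes that fell without LPS, 359 had a negative change with LPS and 248 passed as lower. Of the 205 that rose, 119 had a positive change, 75 passed as higher and 39 passed as lower. The falls thus kept their direction in 77.0% of cases, beside 53.7% negative changes with LPS over all tested genes, and the rises in 58.0%, beside 46.0% positive changes.

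Named genes took different courses with LPS. Cd5l changed by -1.31 ± 0.08 both without and with LPS, Pls3 by -1.81 and -2.09, Capn1 by -1.61 and -1.78, Colec12 by -1.14 and -1.39, Fcgr4 by -1.12 and -1.21, and Gdf3 by 1.36 and 1.64. For these 6 the difference between the 2 changes did not pass. For F13a1 the change was 2.33 without LPS and 0.70 with it, and for Irf7 -1.50 and -0.81, and both differences passed (adjusted p = 6.99e-04 and 0.0018). Ccl3 rose by 0.93 without LPS and fell by 1.24 with it, and its difference of -2.17 ± 0.11 passed (adjusted p = 6.99e-04). Ccl4, Pf4, Tlr7, Klf2, Klf6, Tnf, Cd33 and Slc2a6 also passed as higher without LPS and lower with it, and Nr1h3, Abcc4, Myh9 and Ldha as lower without LPS and higher with it. In all, 78 genes passed in opposite directions, 39 each way. The difference between the 2 genotype changes passed for 1900 tested genes (16%), and for 109 of the 205 rises and 190 of the 466 falls, a count that uses the same con libraries that chose them.

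**Figure D5:**
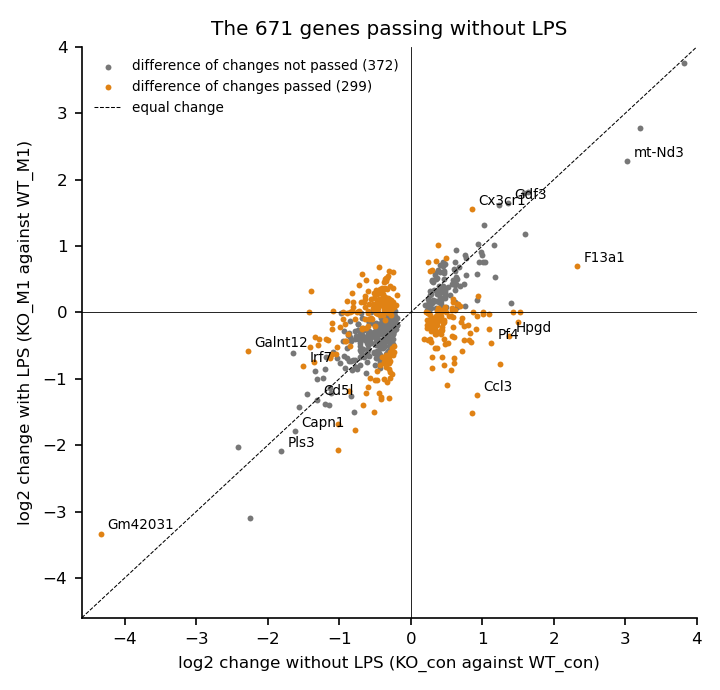
Each point is 1 of the 671 genes passing without LPS, placed by its log2 change between KO_con and WT_con and by that between KO_M1 and WT_M1; orange points are the 299 whose changes differed (adjusted p under 0.05), grey points are the rest, and the dashed line marks equal change. Pls3 and Capn1 lie near the line, F13a1 (2.33 and 0.70) below it, and Ccl3 (0.93 and -1.24) among the genes of opposite direction.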

How the data were processed

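RNA sequencing covered 8 libraries in 4 groups of 2, of which the 4 without LPS are compared here. The authors deposited 1 table of FPKM for 54532 genes, with gene positions, and per the submitters' processing notes used mm10 and DESeq2, with no version or role named. The aligner, the counter and the annotation were not given in the sources used here. Products of FPKM and length fell on whole multiples of a unit specific to each library (100% of values above 0, tolerance 0.001), so reads were rebuilt. A count of 0 allows 3 reads, 0.166 to 0.173 CPM without LPS, for counting error only. Differences were tested with limma-trend 3.58.1 (R 4.3.3) on log2(FPKM + 1), all 4 groups in 1 model with 4 residual and 2.74 prior degrees of freedom, two-sided, and checked on simulated data. Gene lists (54, with 1024 entries) are described by counts and medians, without a test. The comparison, lists and named genes were chosen with earlier results of these data known. Named genes are Elf1, its neighbours, housekeeping genes, the 15 largest rises and falls with a mean of at least 5 FPKM, no overlap and no predicted or mitochondrial name, and up to 6 passing members per list with the largest changes; others are marked in the text. Promoters came from RefSeq (GRCm38.p6), matched by symbol. Alternatives were other pseudocounts, filters, scalings, moderation, voom on the rebuilt reads, a model of 4 libraries, replicate blocks and leaving out each library.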

Additional observations from a re-analysis of the deposited data

Results flagged for a closer look

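For 63 named results the genotype change without LPS differed from that with LPS, by limma's test of the difference over all tested genes (adjusted p under 0.05). Each value in brackets is the log2 change with LPS less the change without it. The same con libraries enter both the change that chose most of these genes and the difference. Among genes higher without LPS, Cx3cr1 (0.69) had a larger genotype difference with LPS. Its level was lower with LPS in both genotypes, at 0.455 and 0.292 FPKM in WT_M1 and 2.86 and 3.22 in KO_M1. The difference was negative for the clotting subunit F13a1 (-1.63), the prostaglandin enzymes Hpgd (-1.73) and Ptgs1 (-0.98), the chemokines Ccl3 (-2.17), Ccl4 (-1.60), Pf4 (-1.59), Cxcl2 (-1.03) and Ccl6 (-0.39), and for Tnf (-1.11) and F10 (-0.39). It was also negative for the regulators Egr1 (-1.34), Klf2 (-1.15) and Klf6 (-1.13), the receptors Tlr7 (-1.26), Cd33 (-0.99), Fcrls (-0.85), Mrc1 (-0.81), Lilr4b (-0.67), Clec10a (-0.65), Fcgr2b (-0.59), Lilrb4a (-0.55), Fcgrt (-0.55) and Msr1 (-0.33), and for Psme2 (-1.24), Slc2a6 (-0.99), Acpp (-0.70), Parp14 (-0.58), Stmn1 (-0.57), Pfkm (-0.49) and Pdgfa (-0.44). Elf1, which did not pass without LPS, differed by -0.64.

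Among genes lower without LPS the difference was positive, a smaller or turned fall with LPS on the log2(FPKM + 1) scale, for the interferon genes Irf7 (0.69), Ifi27l2a (0.81), Oas3 (0.49), Lgals3bp (0.47) and Oasl2 (0.33), for the cytoskeletal and adhesion genes Itga9 (0.94), Myh9 (0.74), Rac2 (0.55), Myo7a (0.44) and Vasp (0.42), and for the surface and clearance genes Lrp1 (0.60), Cd37 (0.46), Csf2ra (0.44), Mfge8 (0.43) and Adgre1 (0.39). The same held for Galnt12 (1.69), Gm42031 (1.00), Abcc4 (0.91), Cdkn1c (0.89), Capn11 (0.89), B4galnt1 (0.85), Nr1h3 (0.80), Pbxip1 (0.78), Cxcl14 (0.76), Ldha (0.72), Il1b (0.60) and Ccdc88b (0.47). For Gm42031, at 0 reads in every KO library, the fitted difference follows the lower WT level with LPS. Other WT levels were also low with LPS, where the scale understates changes. Galnt12 had 13 and 20 reads in WT_M1 and 1 and 1 in KO_M1, and Capn11 had 8 and 17 against 0 and 2. Myo7a had 1.27 and 1.30 FPKM in WT_M1 and 0.401 and 0.425 in KO_M1. For such genes a smaller fall on this scale need not be a smaller ratio. The fall was larger with LPS for Gbp9 (-0.72), Hk3 (-0.46), Ifi209 (-0.32) and Fcgr1 (-0.27).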

How the results depend on the processing

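Of 129 genes named in the text 122 passed as reported, and no named change turned direction with a call under any alternative tried. As reported, 671 genes passed, 205 higher and 466 lower. With voom on the rebuilt reads it was 1696 (666 higher and 1030 lower), and in a model of the 4 libraries without LPS 51 (14 and 37), where 91 of the named genes lost their call. Higher genes numbered 433 with total-read scaling and 349 after quantile normalization, and lower genes 252 under TPM scaling and 302 with no filter on low values. Leaving out 1 library in turn gave 137 to 536 genes, 45 to 160 higher and 92 to 376 lower. A left-out con library leaves a group with 1 library, which the model takes to vary like the other groups. Replicate numbers in the labels recur across groups, and deviations of same-numbered libraries correlated at -0.08 to 0.03. Such a low correlation cannot exclude a shared animal or batch where other noise between libraries is larger. Whether the numbers pair the libraries is therefore not known. With a replicate block in the 4-group model 406 genes passed (124 higher and 282 lower), and in a block fit of the 4 libraries alone limma called 0 in either direction, with 2035 at an unadjusted p under 0.05. Other pseudocounts left 2 (0.1) and 8 (5) of the named genes without a call, no trend 19, no filter 31, TPM scaling 19, total-read scaling 7 and quantile normalization 9. At 2 libraries a group, the median standard error of a change was 0.156 in genes under 1 FPKM and 0.0546 at 100 FPKM or more.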
